A study of Homo sapiens with 12 samples.

Results

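The matrix metalloproteinases and their tissue inhibitors were examined in a triple-negative breast cancer (TNBC) line as 10 genes chosen by name, out of the 55242 genes that remained in the count tables after genes named as rRNA were removed. The 10 members were 7 metalloproteinases (MMP1, MMP2, MMP3, MMP9, MMP10, MMP13 and MMP14) and 3 inhibitors (TIMP1, TIMP2 and TIMP3). All 10 were listed in every library, and 9 reached the level needed for a test, a mean normalized read count of 10 in either group compared. MMP9 stayed below it. RNA-seq libraries had been made from Hs 578T cells, an established line of mesenchymal character, to which a lentivirus had added either GFP, as the control, or NRF2, the transcription factor of the antioxidant response encoded by NFE2L2. The cells were then kept for 8 h in medium with 0.8 mM cystine (Cyss), the oxidized form of cysteine, or in the same medium without it. The 4 groups were GFP with Cyss, GFP without Cyss, NRF2 with Cyss and NRF2 without Cyss, with 3 libraries each. All 4 groups carried a lentiviral construct, and both media held serum, methionine and glutamine. Nothing in the sample descriptions says that the libraries of a group came from separate cultures, so p-values measure the spread between these libraries, which may be technical.

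Metalloproteinases are zinc-dependent enzymes that cut collagens and other matrix proteins outside the cell, and most are made as inactive precursors that plasmin or other metalloproteinases activate. Collagenases (MMP1 and MMP13) cut fibrillar collagen, stromelysins (MMP3 and MMP10) have a broad range of substrates and activate other family members, gelatinases (MMP2 and MMP9) cut denatured collagen, and the membrane-bound MMP14 activates the MMP2 precursor. TIMPs block the active enzymes, and in breast tumours both are known for their part in invasion. The genes of the inducible collagenases and stromelysins lie side by side on chromosome 11 and are classical targets of the AP-1 transcription factors, the dimers of FOS and JUN proteins.

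The 250 bases before the start site of 3 members are shown because these genes differed in size of response: MMP10 had the largest rise with exogenous NRF2, over 10-fold in both media, whereas MMP14 and TIMP3 rose by less than 1.5-fold, with NRF2 in medium without Cyss, and all 3 rose in NRF2 cells when Cyss was withheld. They were taken from RefSeq on GRCh38.p14, where 4 of the 10 members had an entry (these 3 and TIMP1), and run 5′ to 3′ on the strand of the gene. Capitals mark matches to TGANTCA, which holds the AP-1 sites TGACTCA and TGAGTCA, and to TATAAA.
MMP10: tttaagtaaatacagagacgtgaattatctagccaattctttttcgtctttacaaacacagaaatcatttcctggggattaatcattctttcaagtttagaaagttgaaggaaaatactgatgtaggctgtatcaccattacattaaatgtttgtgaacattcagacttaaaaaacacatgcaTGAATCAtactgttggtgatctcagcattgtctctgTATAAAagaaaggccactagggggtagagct
MMP14: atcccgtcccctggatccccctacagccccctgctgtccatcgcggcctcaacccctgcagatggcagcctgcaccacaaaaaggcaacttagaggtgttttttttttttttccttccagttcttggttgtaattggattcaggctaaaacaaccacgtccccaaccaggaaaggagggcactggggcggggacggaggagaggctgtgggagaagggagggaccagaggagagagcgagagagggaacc
TIMP3: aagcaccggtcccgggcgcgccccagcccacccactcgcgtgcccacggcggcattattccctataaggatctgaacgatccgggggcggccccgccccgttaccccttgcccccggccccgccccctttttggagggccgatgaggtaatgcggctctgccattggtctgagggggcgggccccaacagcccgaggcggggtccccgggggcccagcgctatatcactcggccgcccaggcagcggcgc
The MMP10 window covers chr11:102780629-102780878 on the minus strand, the MMP14 window chr14:22836335-22836584 and the TIMP3 window chr22:32801455-32801704, both on the plus strand. MMP10 had a match to TGANTCA at base 184 of the window and to TATAAA at base 220, counted from its 5′ end. The match to TGANTCA was neither of the AP-1 sites named. Searched on both strands, TGANTCA occurred in 6.6% of 27305 promoter windows of the same length, the AP-1 sites in 4.16% and TATAAA in 11.1%. The core of the antioxidant response element to which NRF2 binds, TGACNNNGC, occurred in 11% of all windows and had no match in the windows of MMP10, MMP14, TIMP1 or TIMP3. These matches describe the letters of short windows only.

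Each library held 27334061 to 44734611 reads on genes (median 32974255). NFE2L2 was higher in NRF2 than in GFP libraries both with Cyss (log2 fold change 0.84) and without it (0.79), as the labels say. GFP without Cyss replicate 3 stood apart from its group: on the first principal component of the expression values (43.2% of the variance) it lay at 4.84, against -6.93 and -4.15 for replicates 1 and 2, in the direction of the libraries of NRF2 without Cyss, which lay between 19.6 and 21.7. The sample descriptions call the line epithelial. EPCAM, KRT19, CLDN3 and CLDN7 had mean normalized counts under 3 in every group, while the mesenchymal markers VIM and FN1 had mean normalized counts of at least 144937. CDH2, ZEB1 and SNAI2 had group means of at least 7159, and TWIST1 of 878 to 1146. Of the other epithelial markers, KRT18 had group means of 796 to 1297, in the range of TWIST1. KRT8 had 167 to 204, CLDN4 13.6 to 17.9 and CDH1 4.44 to 10.8. Without Cyss in NRF2 cells TWIST1 was called lower and ZEB1 higher. KRT18 was called higher without Cyss in both cell populations. CDH1, with 3 to 12 reads per library, was called lower for NRF2 without Cyss by edgeR but not by DESeq2. The summed normalized count of the 8 epithelial markers, most of which was KRT18, moved with Cyss: it was 1125 to 1265 in GFP with Cyss, 1356 to 1695 in GFP without Cyss, 938 to 1047 in NRF2 with Cyss and 1312 to 1601 in NRF2 without Cyss. Of 3 leukocyte markers CD3E was at 0 in every group, CD68 had group means of 9.63 to 13.6 and PTPRC of 21.4 to 36.7, and their summed normalized count was 35.9 to 61.4 in GFP with Cyss, 38.4 to 54.2 in GFP without Cyss, 36.9 to 47.3 in NRF2 with Cyss and 31.9 to 38.6 in NRF2 without Cyss. PTPRC was called lower for NRF2 without Cyss (log2 fold change -0.78, SE 0.23, edgeR adjusted p = 0.0334). Of 2 endothelial markers CDH5 was under 3 in every group, while KDR had group means of 45.1 to 70.9, and their sum was 46.6 to 58.8, 53.3 to 54.8, 38.8 to 53.6 and 66.7 to 82.6 in the same groups. KDR was called higher without Cyss in NRF2 cells (log2 fold change 0.65, SE 0.17, edgeR adjusted p = 0.0152) and for NRF2 without Cyss (0.45, SE 0.15, adjusted p = 0.0510). MMP1, MMP3, MMP14 and TIMP3 were called in these comparisons too, but DESeq2 did not call KDR in the latter. Its log2 fold change was 0.05 for Cyss in GFP cells and -0.14 for NRF2 with Cyss. The interaction of KDR (0.60) was not called, while those of these members were. It was larger than those of MMP14 (0.41) and TIMP3 (0.38), and its unadjusted p in edgeR's test was under 0.05. The part of these markers in the results was not tested.

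The members spanned a wide range of abundance. Per length, in reads per kilobase of exon, scaled by library size (RPKM), TIMP3 had the highest level in GFP with Cyss, at 271 ± 7.93 (SD, n = 3). It was followed by MMP2 (172 ± 3.19), MMP14 (143 ± 3.81), TIMP1 (99.1 ± 5.33) and TIMP2 (47.8 ± 1.09). The other metalloproteinases were far lower, with levels per length of 4.14 ± 0.128 for MMP3, 2.02 ± 0.182 for MMP1, 0.408 ± 0.0851 for MMP10 and 0.380 ± 0.0118 for MMP13, and MMP9 was at 0.0245 ± 0.0227. In this order MMP10 and MMP13 could not be separated, since the ranges of their libraries overlapped, whereas every other pair of neighbours in the order was apart. The same order held in GFP without Cyss. In NRF2 with Cyss, MMP10 rose to the level of MMP3, with 5.23 ± 0.674 against 5.62 ± 0.549 and overlapping ranges, and passed MMP1 (2.25 ± 0.159). In NRF2 without Cyss, MMP10 (8.0 ± 1.14) and MMP1 (9.29 ± 2.43) overlapped, as did MMP14 (208.5 ± 25.2) and MMP2 (184 ± 9.74), while MMP3 stood at 17.9 ± 4.68. MMP2 and MMP14 together held 99% ± 0.0305 (SD, n = 3) of the reads of the 7 metalloproteinases in GFP with Cyss and 96.1% ± 0.527 in NRF2 without Cyss, and MMP1, MMP3 and MMP10 together 0.935% ± 0.0284 and 3.79% ± 0.531.

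**Figure D1:**
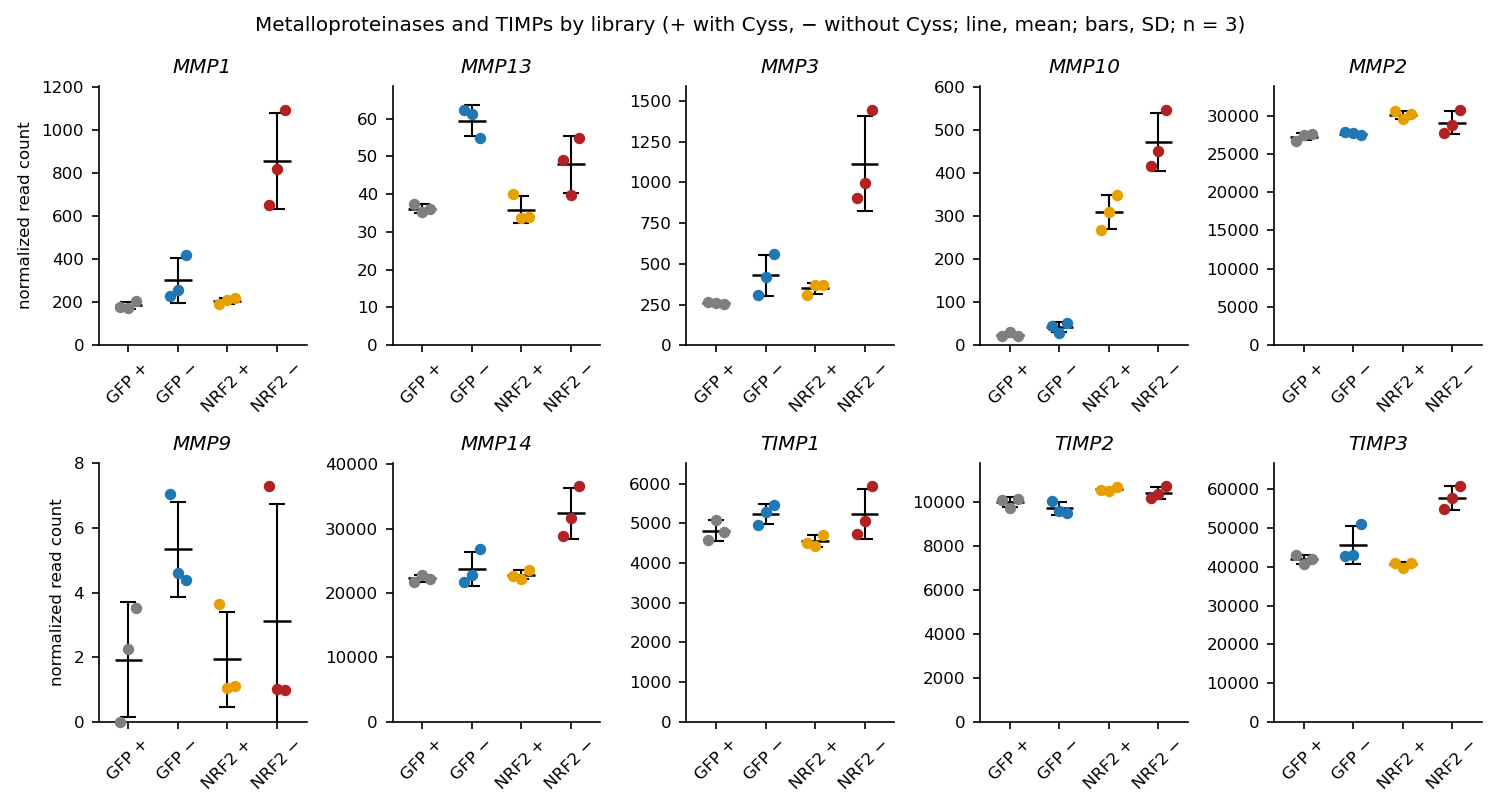
Normalized read count of each of the 10 members (y axis, from 0, with its own scale in each panel) in each of the 12 libraries, by group (x axis; + with Cyss, − without Cyss); points are libraries, lines are means and bars SDs of 3 libraries. MMP10 is high in the 6 NRF2 libraries, between 269 and 548, and at most 52.6 in the 6 GFP libraries, whereas MMP1, MMP3, MMP14 and TIMP3 are highest in the 3 libraries of NRF2 without Cyss.

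Between 2 and 5 members rose in each of the 4 comparisons between groups and 0 fell, in edgeR's quasi-likelihood test with an adjusted p under 0.1 and a log2 fold change above 0.32 in size. The count of members lower was also 0 at an unadjusted p under 0.05 and with DESeq2. At that unadjusted p, in either direction, between 3160 and 5962 of all genes tested passed, depending on the comparison. Comparisons that share a group share its libraries and are not independent. The members were chosen with earlier results of these data known, so the shares of all genes given beside them are for scale and test nothing. When Cyss was withheld from GFP cells, 3 of the 9 members tested rose, where 1.57% of 17452 genes were called higher, and 0 fell, where 0.533% were called lower. In NRF2 cells 5 of 9 rose without Cyss, against 6.81% of 17266 genes, and 0 fell, against 5.14%. NRF2 raised 2 of 9 in medium with Cyss, against 1.36% of 17449 genes, and lowered 0, against 0.201%. Without Cyss it raised 5 of 9, against 5.98% of 17297 genes, and lowered 0, against 4.09%. The response to the lack of Cyss was larger in NRF2 than in GFP cells for 4 of 9 members, where the interaction of cells and medium had an adjusted p under 0.1 in this direction for 8.97% of 17674 genes, and smaller for 0, where it was 6.13%. Without GFP without Cyss replicate 3, the members called higher were again 3 of 9 for Cyss in GFP cells, 5 for the effect of NRF2 in the absence of Cyss, and 4 for the interaction. The members' median log2 fold changes in these 5 fits were 0.13, 0.51, 0.10, 0.34 and 0.09, while the median over all genes tested lay between -0.02 and 0.00. When reads were scaled by library size alone, the split of all genes called shifted from 1176 higher and 887 lower to 936 and 1397 for Cyss in NRF2 cells, from 1034 and 708 to 876 and 1001 for NRF2 without Cyss, and from 1585 and 1084 to 1124 and 1981 for the interaction. The members called were then 5, 4 and 4 higher, respectively, and 0 lower.

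**Figure D2:**
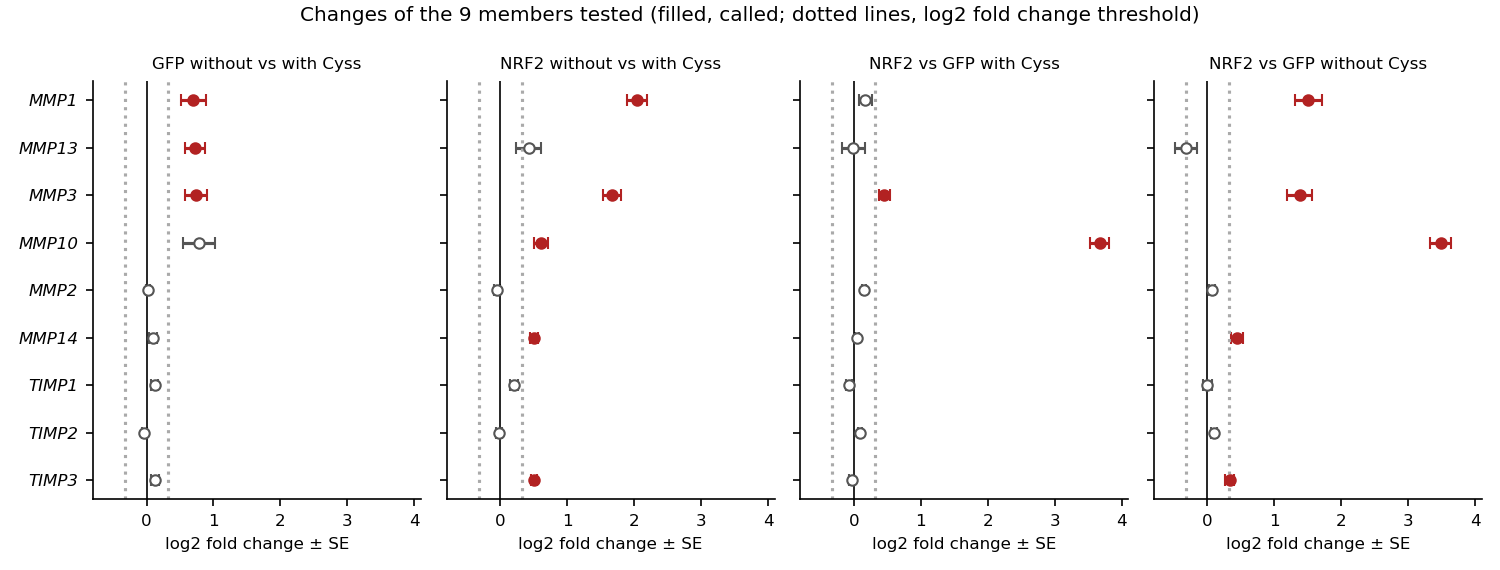
Log2 fold change (x axis, point) and its standard error (bar) of the 9 members tested (y axis) in 4 comparisons, with calls filled and the log2 threshold of 0.32 dotted. MMP10 lies at 3.67 and 3.48 in the comparisons of NRF2 with GFP cells, and MMP1 at 2.05 and MMP3 at 1.67 in that of Cyss in NRF2 cells.

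MMP1, the interstitial collagenase, responded to the lack of Cyss, most in NRF2 cells. Its normalized counts were 180, 173 and 205 in GFP with Cyss, 226, 258 and 419 in GFP without Cyss, 190, 211 and 219 in NRF2 with Cyss, and 652, 818 and 1095 in NRF2 without Cyss. The libraries of both cell populations overlapped with Cyss, and those of NRF2 without Cyss lay above all others. MMP1 rose 4.14-fold without Cyss in NRF2 cells (log2 fold change 2.05, SE 0.15, edgeR adjusted p = 1.42e-07) and 1.63-fold in GFP cells (0.70, SE 0.18, adjusted p = 0.0559), and the difference between the responses was 1.35 on the log2 scale (SE 0.28, adjusted p = 0.00562). NRF2 raised it 2.84-fold without Cyss (log2 fold change 1.51, SE 0.20, adjusted p = 0.000608), and with Cyss its log2 fold change was 0.17 (SE 0.09, adjusted p = 0.330). The call in GFP cells was the least firm: the log2 fold change was 0.39 without GFP without Cyss replicate 3 (adjusted p = 0.0879), and the adjusted p ran up to 0.250 over the 18 alternatives, of which 13 kept the call. Of the exon bases of MMP1, 8.14% also lie in exons of WTAPP1, a pseudogene on the other strand, and since reads were counted without strand, reads in that stretch cannot be assigned to either.

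MMP13, the other collagenase, was about as scarce per length as MMP10 in control cells and responded to Cyss but not detectably to NRF2. Its normalized counts were 37.4, 35.2 and 36 in GFP with Cyss and 62.4, 61.1 and 54.8 in GFP without Cyss, so that the groups did not overlap. In NRF2 cells they were 40.0, 33.7 and 33.9 with Cyss and 49.0, 39.9 and 54.7 without, and here replicate 2 without Cyss fell just inside the range of the libraries with Cyss. MMP13 rose 1.65-fold in GFP cells (log2 fold change 0.72, SE 0.15, edgeR adjusted p = 0.0183), while in NRF2 cells the log2 fold change was 0.42 (SE 0.19, adjusted p = 0.131). Exogenous NRF2 gave log2 fold changes of 0.00 (SE 0.18) with Cyss and -0.31 (SE 0.16) without, neither of which passed the test, and the responses to Cyss did not differ between the cell populations beyond their error (difference -0.30 on the log2 scale, SE 0.23, adjusted p = 0.495).

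MMP3, stromelysin-1, followed a course much like that of MMP1 with a small added effect of NRF2 in complete medium. Its normalized counts were 266, 257 and 250 in GFP with Cyss, 308, 421 and 561 in GFP without Cyss, 311, 370 and 370 in NRF2 with Cyss, and 902, 997 and 1448 in NRF2 without Cyss. No library of GFP with Cyss reached the lowest library of any other group. Without Cyss it rose 3.18-fold in NRF2 cells (log2 fold change 1.67, SE 0.14, edgeR adjusted p = 5.87e-07) and 1.67-fold in GFP cells (0.74, SE 0.16, adjusted p = 0.0229), a difference of 0.93 on the log2 scale (SE 0.25, adjusted p = 0.0266). NRF2 raised MMP3 1.37-fold with Cyss (log2 fold change 0.46, SE 0.08, adjusted p = 0.00383) and 2.60-fold without (1.38, SE 0.19, adjusted p = 0.000726). The call for NRF2 with Cyss was lost when all 12 libraries shared the fit (adjusted p = 0.258). In edgeR's robust fit those for Cyss in GFP cells and for the interaction were lost (adjusted p = 0.182 and 0.136). Of the alternatives of these 3 results, 17 of 18, 17 of 18 and 21 of 22 kept the call. Without GFP without Cyss replicate 3 the log2 fold change in GFP cells was 0.49 (adjusted p = 0.0426).

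MMP10, stromelysin-2, was the member with the largest response to exogenous NRF2. Its reads numbered 24, 40 and 24 in GFP with Cyss and 44, 25 and 48 in GFP without Cyss, against 222, 294 and 319 in NRF2 with Cyss and 401, 442 and 551 in NRF2 without Cyss. Normalized, these were 21.4, 29.9 and 21.1, then 44.3, 28.8 and 52.6, then 269, 310 and 349, and last 418, 452 and 548. Every NRF2 library lay above every GFP library, and the libraries with and without Cyss overlapped in GFP but not in NRF2 cells. NRF2 raised MMP10 12.7-fold with Cyss (log2 fold change 3.67, SE 0.15, edgeR adjusted p = 1.18e-10) and 11.2-fold without (3.48, SE 0.16, adjusted p = 2.27e-07). The lack of Cyss raised it 1.53-fold in NRF2 cells (log2 fold change 0.61, SE 0.10, adjusted p = 0.000623). In GFP cells the log2 fold change of 0.79 (SE 0.24) did not pass the test, with an adjusted p of 0.1003 at the threshold, and 7 of 18 alternatives, whose adjusted p ran from 0.00823 to 0.279, called it. Its response to Cyss did not differ between the cell populations beyond the error (difference -0.18 on the log2 scale, SE 0.28, adjusted p = 0.747), unlike that of MMP1 and MMP3. Of the stretches of 36 bases in MMP10 exons, 5.98% also occur in MMP3, and reads confined to them would not map to a single place.

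MMP2, gelatinase A, was abundant and nearly level. Its normalized counts lay between 26677 and 27582 in GFP with Cyss, 27398 and 27826 in GFP without Cyss, 29499 and 30532 in NRF2 with Cyss, and 27773 and 30781 in NRF2 without Cyss. With Cyss the NRF2 libraries lay above the GFP libraries, with an adjusted p of 0.0128 in edgeR's test and a log2 fold change of 0.15 (SE 0.03), under the threshold of 0.32, so that the gene was not called. The other fits gave log2 fold changes between -0.07 and 0.07 for MMP2, and none passed the test. MMP9, gelatinase B, had 0, 3 and 4 reads in GFP with Cyss, 7, 4 and 4 in GFP without Cyss, 3, 1 and 1 in NRF2 with Cyss, and 7, 1 and 1 in NRF2 without Cyss. At this depth no difference between its groups was detectable.

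MMP14, the membrane-type enzyme, rose in NRF2 cells without Cyss. Its normalized counts were 21696, 22877 and 22237 in GFP with Cyss, 21681, 22844 and 26779 in GFP without Cyss, 22716, 22236 and 23580 in NRF2 with Cyss, and 28928, 31606 and 36636 in NRF2 without Cyss. The first 3 groups overlapped, except that GFP without Cyss replicate 3 stood above them, and the fourth lay above all. The lack of Cyss raised MMP14 1.42-fold in NRF2 cells (log2 fold change 0.51, SE 0.06, edgeR adjusted p = 3.20e-05), whereas the log2 fold change in GFP cells was 0.10 (SE 0.06, adjusted p = 0.432). The difference of 0.41 passed the test (SE 0.10, adjusted p = 0.0172). NRF2 raised MMP14 1.36-fold without Cyss (log2 fold change 0.44, SE 0.08, adjusted p = 0.00410), and with Cyss the log2 fold change was 0.05 (SE 0.04).

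Of the inhibitors, TIMP3, which is held in the matrix, changed with MMP14. Its normalized counts were 43068, 40623 and 41949 in GFP with Cyss, 42716, 43013 and 51160 in GFP without Cyss, 40976, 39703 and 41086 in NRF2 with Cyss, and 54808, 57669 and 60829 in NRF2 without Cyss. As for MMP14, only GFP without Cyss replicate 3 came between the first 3 groups and the fourth. TIMP3 rose 1.43-fold without Cyss in NRF2 cells (log2 fold change 0.51, SE 0.04, edgeR adjusted p = 7.87e-07), and in GFP cells the log2 fold change was 0.13 (SE 0.06, adjusted p = 0.275). The difference was 0.38 (SE 0.08, adjusted p = 0.00579). NRF2 raised it 1.27-fold without Cyss (log2 fold change 0.34, SE 0.07, adjusted p = 0.00517), just past the threshold of 0.32, and 14 of 18 alternatives kept this call. With library size scaling alone the log2 fold change was 0.31, and it was between 0.29 and 0.31 without GFP without Cyss replicate 1 or 2 or NRF2 without Cyss replicate 3.

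TIMP1 and TIMP2 were called in no comparison. The normalized counts of TIMP1 lay between 4577 and 5091 in GFP with Cyss, 4958 and 5448 in GFP without Cyss, 4416 and 4713 in NRF2 with Cyss, and 4717 and 5936 in NRF2 without Cyss. TIMP1 had an adjusted p of 0.0303 for Cyss in NRF2 cells, with edgeR, but a log2 fold change of only 0.21 (SE 0.06). TIMP2 lay between 9469 and 10716 in all 12 libraries, and its log2 fold changes were between -0.04 and 0.10 in the 4 comparisons. TIMP2 is also known to bridge MMP14 and the MMP2 precursor during its activation, and of these 3 genes only MMP14 was called in a comparison.

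MMP10 was next compared with its neighbours. On GRCh37 the GENCODE 44 annotation places MMP10 at chr11:102641233-102651359, on the minus strand as are all metalloproteinase genes of the cluster. MMP1 (chr11:102660132-102668891) begins 8.77 kb away, MMP3 (chr11:102706532-102714340) 55.2 kb, MMP12 (chr11:102733467-102745712) 82.1 kb and MMP13 (chr11:102813724-102826461) 162 kb, while on the other side MMP8 lies 43.5 kb away, MMP27 64.7 kb, MMP20 145 kb and MMP7 240 kb. Of 10 neighbours that are not members, 6 could be tested for the effect of NRF2. MMP12, the macrophage elastase, was called higher, with 5, 7 and 4 reads in GFP and 12, 7 and 21 in NRF2 with Cyss, and 5, 3 and 8 in GFP and 22, 21 and 30 in NRF2 without Cyss. Its log2 fold changes were 1.73 (SE 0.44, edgeR adjusted p = 0.0413) and 2.08 (SE 0.35, adjusted p = 0.00200), on few reads, and it entered the test only through the NRF2 groups. BIRC3, an inhibitor of apoptosis farther along the chromosome, was called without Cyss (log2 fold change 0.48, SE 0.09, adjusted p = 0.00412), and with Cyss its value was -0.28 (SE 0.09, adjusted p = 0.11). BIRC2, TMEM123, DCUN1D5 and MMP7 were not called in either medium, with log2 fold changes between -0.09 and 0.23 for the first 3 and of 0.98 (SE 0.40) and 0.64 (SE 0.39) for MMP7, which had 4 to 20 reads per library. MMP8, MMP20 and MMP27 were too low to test. WTAPP1, which overlaps the cluster on the plus strand, had 0 reads in all 6 GFP libraries, 0, 0 and 1 in NRF2 with Cyss, and 5, 4 and 4 in NRF2 without Cyss.

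**Figure D3:**
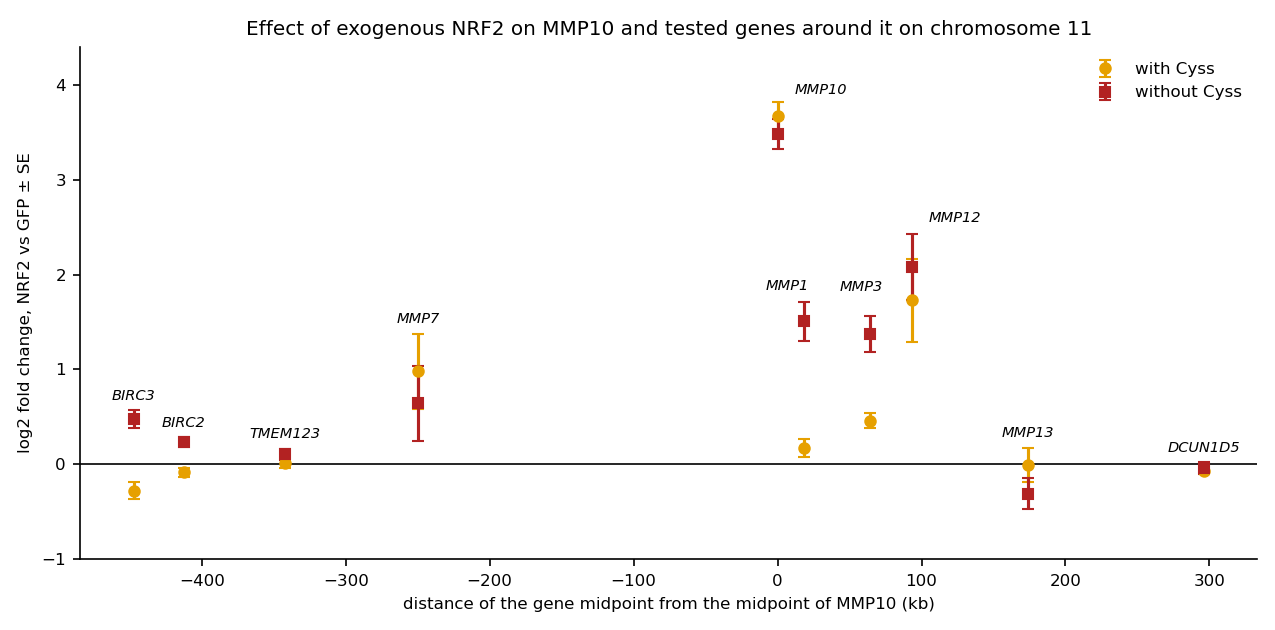
Log2 fold change of NRF2 against GFP cells (y axis) with its standard error (bars) for MMP10 and the 9 tested genes around it on chromosome 11, against the distance between gene midpoints in kb (x axis), with Cyss (circles) and without (squares). MMP10 stands at 3.67 and 3.48, MMP12 at 1.73 and 2.08, and MMP1 moves from 0.17 with Cyss to 1.51 without.

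The ratio of MMP10 reads to those of another gene within a library does not depend on scaling, and it was tested against the other 8 members with enough reads and 5 neighbours. NRF2 raised all 13 ratios, averaged over both media, with an exact two-sided permutation p of 0.005, the smallest that the 400 arrangements allow (adjusted over the 13 ratios, 0.005). All 13 ratios share the MMP10 reads, in which every NRF2 library lay above every GFP library, so they are not 13 separate results. The genes compared were also chosen with earlier results of these data known. The rise was 6.40-fold relative to MMP3, 6.73-fold relative to MMP1, 10.2-fold relative to MMP14, 11.2-fold relative to MMP2, 12.4-fold relative to TIMP1 and 13.5-fold relative to MMP13. It was smallest, 3.41-fold, relative to MMP12. That gene had 3 to 8 reads per GFP library and reached the mean count of 10 needed here only through the NRF2 groups. Its small ratio change is therefore no separate result. Relative to MMP1 the rise was 3.51 on the log2 scale with Cyss and 1.99 without, since MMP1 also rose in NRF2 cells without Cyss. The lack of Cyss, averaged over both cell populations, raised MMP10 1.63-fold relative to MMP2 and 1.65-fold relative to TIMP2, and 1.44-fold relative to TIMP1 (exact permutation p = 0.01 each, adjusted 0.026). The same held relative to TMEM123 (1.72-fold) and DCUN1D5 (1.54-fold). Relative to MMP14 the rise was 1.31-fold (exact permutation p = 0.045, adjusted 0.0836), with log2 changes of 0.68 in GFP and 0.11 in NRF2 cells. This call was lost on leaving out any of 8 of the 12 libraries. Relative to TIMP3 the rise was 1.30-fold (exact permutation p = 0.075, adjusted 0.106), with log2 changes of 0.65 in GFP and 0.10 in NRF2 cells. Relative to MMP13 it was 1.1-fold (exact permutation p = 0.49). Against MMP1 and MMP3 the ratio fell by 0.64 and 0.48 on the log2 scale, which did not pass the adjusted threshold (exact permutation p = 0.075 and 0.085, adjusted 0.106 for both), with changes of -1.41 and -1.03 in NRF2 cells and of 0.12 and 0.07 in GFP cells. Among the reads of MMP1, MMP3 and MMP10, MMP10 made up 4.57, 6.52 and 4.43% in GFP with Cyss, 7.65, 4.07 and 5.10% in GFP without Cyss, 35.0, 34.8 and 37.2% in NRF2 with Cyss, and 21.2, 20 and 17.7% in NRF2 without Cyss.

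**Figure D4:**
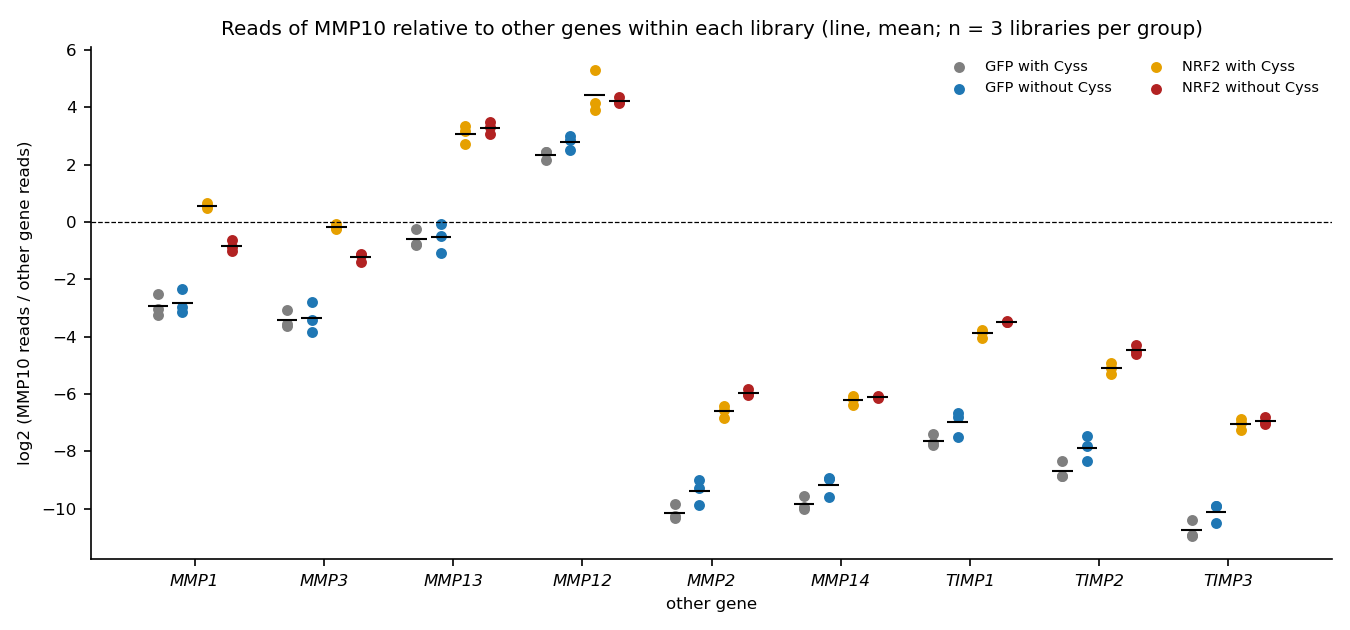
Log2 ratio of MMP10 reads to those of 9 other genes (y axis; 0.5 added to both counts) in each library (points), by gene (x axis) and group (colours), with the mean of each group as a line. NRF2 lifts every ratio, by 1.77 on the log2 scale relative to MMP12 and by 2.68 to 3.76 relative to the members. MMP12 has few reads and is included only through its NRF2 groups. In NRF2 cells the ratios to MMP1 and MMP3 change by -1.41 and -1.03 without Cyss.

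The members fell into patterns that the correlation of log2 normalized counts over the 12 libraries describes, with all points sharing the 4 groups. MMP1 went with MMP3 (r = 0.98), TIMP3 (0.98) and MMP14 (0.97). The members with the highest r with MMP10 were MMP2 (0.79) and TIMP2 (0.75), followed by MMP3 (0.69), MMP14 (0.63) and MMP1 (0.61), and among its neighbours MMP12 had 0.92. Among the 13527 genes whose normalized counts averaged 50 or more, the highest r with MMP10 were those of CNTNAP1 (0.98), ADAMTS14 (0.98), NFE2L2 itself (0.98), LUCAT1 (0.96) and MC1R (0.96), and the lowest those of RGS5 (-0.97), CSE1L (-0.95), PAICS (-0.95), KIAA1731 (-0.94) and WDHD1 (-0.94). These 10 were picked by r with MMP10 in the same libraries. A difference between NRF2 and GFP cells in them is therefore no separate result. Counts of NFE2L2 do not tell the added NRF2 from that of the cells. LUCAT1, a long non-coding RNA, passed the cut of 50 only through the NRF2 groups (means of 109 and 102, against 28.1 and 27.3 in GFP cells). Of the 10, LUCAT1 came nearest to MMP10 in size of effect, with log2 fold changes of 1.98 and 1.89 for NRF2 with and without Cyss. ADAMTS14, a procollagen peptidase of the related ADAMTS family, had 0.47 and 0.49, and RGS5 -0.49 and -0.50.

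The other genes of the system were read from lists written for the purpose. Of 17 further metalloproteinase and TIMP genes, 6 to 9 could be tested, depending on the comparison: MMP12 was called for NRF2 in either medium, and MMP16, another membrane-type enzyme, had a larger response to Cyss in NRF2 than in GFP cells (difference 0.36 on the log2 scale, SE 0.09, edgeR adjusted p = 0.0170) but no called change in a single comparison. MMP11, MMP15, MMP17, MMP19, MMP24 and MMP25 were called in no fit in which they were tested. Plasminogen activation yields plasmin. Of the 7 of its genes tested and reported here, 4 rose without Cyss in NRF2 cells and 0 fell, with log2 fold changes of 2.19 (SE 0.11) for SERPINB2, which inhibits the plasminogen activators, 1.44 (SE 0.09) for the tissue activator PLAT, 0.99 (SE 0.07) for urokinase (PLAU) and 0.88 (SE 0.11) for its receptor PLAUR. The other 3 were not called, with log2 fold changes of 0.24 for SERPINE2, -0.07 for ANXA2 and -0.01 for S100A10. In GFP cells 1 of 7 rose, PLAT (0.68, SE 0.13). With Cyss, NRF2 changed 0 of the 7 in edgeR's test and 0 with DESeq2, with 1 higher and 0 lower at an unadjusted p under 0.05, SERPINB2, which had an adjusted p of 0.0836 and a log2 fold change of 0.21, under the threshold. Without Cyss it raised SERPINB2, PLAT, PLAU and PLAUR, of which DESeq2 called 3. The interaction was called for these 4 genes by edgeR, and for 3 genes of the list by DESeq2.

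Among 15 transcription factors known to act on metalloproteinase promoters, 9 rose and 1 fell without Cyss in NRF2 cells. FOS rose by 1.03 on the log2 scale (SE 0.16), JUN by 0.81 (SE 0.05), ETV5 by 0.77 (SE 0.05) and FOSB by 0.65 (SE 0.17), and JUND fell by 0.33 (SE 0.09). In GFP cells 1 of 15 was called, ETV5 (log2 fold change 0.37, SE 0.06). With Cyss, NRF2 changed 0 of the 15 past both thresholds by edgeR and 0 by DESeq2, with 2 higher and 1 lower at an unadjusted p under 0.05. Of these, ETS1 (log2 fold change -0.22, SE 0.04, adjusted p = 0.00508) and JUN (0.14, SE 0.04, adjusted p = 0.0405) passed the adjusted threshold and missed that of the fold change. Without Cyss NRF2 raised 8, led by FOS (1.26, SE 0.18) and JUN (0.74, SE 0.11). Of 10 tested genes that activate, display or clear metalloproteinases, 4 rose without Cyss in NRF2 cells: TFPI2, a protease inhibitor (0.73, SE 0.10), THBS1 (0.42, SE 0.07), CD44 (0.41, SE 0.04) and FURIN, the convertase that activates MMP14 (0.37, SE 0.05). In GFP cells 0 of the 10 were called by edgeR and 0 by DESeq2, with 2 higher and 1 lower at an unadjusted p under 0.05. PCSK5, a related convertase, rose with NRF2 in both media (0.52, SE 0.08, and 0.54, SE 0.09). Without Cyss, NRF2 also raised TFPI2 (0.79, SE 0.15), FURIN (0.37, SE 0.06) and the clearance receptor LRP1 (0.32, SE 0.06). Of 15 tested ADAM and ADAMTS proteases, ADAMTS6 (1.2, SE 0.07), ADAM19 (0.83, SE 0.04) and ADAMTS1 (0.46, SE 0.05) rose and ADAM33 fell by 0.82 (SE 0.11) without Cyss in NRF2 cells, and the other 11 were not called. In GFP cells ADAMTS6 alone of 14 was called (0.43, SE 0.11). NRF2 raised 2 of 15 with Cyss, ADAMTS14 and ADAM33 (log2 fold change 0.35), and 3 of 14 without it, ADAMTS14, ADAM19 (0.62) and ADAMTS6 (0.54). The shares of all genes called in these comparisons are those given for the members, and these lists were not tested as sets. At edgeR's unadjusted p under 0.05, in either direction, 3321 of 17449 genes passed for NRF2 with Cyss. For Cyss in GFP cells 3160 of 17452 did, so the few list genes at that cut are not set apart from all genes.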

How the data were processed

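The deposited files held raw read counts per gene for each of the 12 libraries, which the authors made from single-end, non-stranded reads with TopHat2 2.1.0 (Bowtie) on hg19 and HTSeq 0.11.2, ignoring strand. The annotation release was not given in the sources used here. The 5 HTSeq counters of unassigned reads (15.9 to 17.1% of each library) were left out, as were 523 genes named as rRNA (0.304 to 0.366% of reads on genes). Counts between libraries of a group differed by more than counting noise (chi-square per degree of freedom 2.22 to 13.0), so each was kept as 1 replicate.

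Genes whose normalized counts averaged 10 or more in one of the groups were tested with edgeR 4.0.16 (R 4.3.3, limma 3.58.1) by its quasi-likelihood test, with TMM scaling over the 6 libraries compared, or over all 12 for the interaction, and Benjamini-Hochberg adjustment over all genes. Calls needed an adjusted p under 0.1 and, outside the interaction, a log2 fold change above 0.32 in size. Ratios, with 0.5 added to each count, were tested by exact two-sided permutation within strata in Python 3.11.15 (numpy 2.4.6, scipy 1.17.1), and figures drawn with matplotlib 3.10.9. On simulated counts, 200 of 200 genes changed by 1 on the log2 scale were recovered in each fit, with 8 to 20 false calls. The changed genes were drawn from those with a mean count of at least 200, and all genes shared 1 dispersion. Recovery of scarcer genes, such as MMP10 in GFP cells, MMP12 and MMP13, or of smaller changes was therefore not tested. Depth limits the precision for genes with few reads, such as MMP9, MMP12 and MMP7. Alternatives covered scaling, filter, thresholds, DESeq2 1.42.0, shared fits, a replicate block, kept rRNA genes, pseudocounts and left-out libraries, and 2 were added after seeing the data (library sizes from before the filter and a robust edgeR fit).

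Genes were named by rule: the 10 members, the 10 neighbours of MMP10, up to 4 called genes per list and comparison, the 5 highest and 5 lowest correlates of MMP10, and NFE2L2. JUND, ETS1, SERPINE2, ANXA2, S100A10 and the markers KDR, PTPRC, CD68, KRT8, KRT18, CLDN4, CDH1, CDH2, ZEB1, SNAI2 and TWIST1 fell outside the rule and were named after their values were seen. Some genes of the lists are not reported here. The members and lists were chosen with earlier results of these data known. Gene positions came from GENCODE 44 on GRCh37 and promoters from RefSeq on GRCh38.p14.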

Additional observations from a re-analysis of the deposited data

Results flagged for a closer look

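For 5 metalloproteinase and TIMP genes the response to the lack of Cyss differed between NRF2 and GFP cells by edgeR's interaction test over all 12 libraries, in each case being larger in NRF2 cells. The differences of log2 fold changes were 1.35 for MMP1 (adjusted p = 0.00562), 0.93 for MMP3 (adjusted p = 0.0266), 0.41 for MMP14 (adjusted p = 0.0172), 0.38 for TIMP3 (adjusted p = 0.00579) and 0.36 for MMP16 (adjusted p = 0.0170). MMP10 was not among them, with -0.18 (adjusted p = 0.747).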

How the results depend on the processing

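Of the 45 pairs of a tested member and a comparison, 31 kept direction and call in all settings. The call of MMP1 for Cyss in GFP cells was lost at an adjusted p threshold of 0.05, with DESeq2 (0.225), in the robust edgeR fit (0.250) and without GFP with Cyss replicate 1 (0.115) or 2 (0.154). MMP13 was called for Cyss in NRF2 cells with all 12 libraries in the fit (edgeR adjusted p = 0.0790) or without NRF2 without Cyss replicate 2 (0.0906). With all 12 libraries in the fit, 1 member in place of 2 rose with NRF2 in medium with Cyss. Without a fold threshold TIMP1 joined the calls for Cyss in NRF2 cells and MMP2 those for NRF2 with Cyss. Leaving out 1 library gave 2 to 4 members higher when GFP cells lacked Cyss, 5 to 6 when NRF2 cells did, 4 to 5 for NRF2 without Cyss, and no change of count for the other fits; the 2 was without GFP with Cyss replicate 1.

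Some uncalled values near 0 changed sign, and the cause was not tested. With library size alone, the log2 fold change of MMP13 for NRF2 with Cyss was 0.00415, that of TIMP1 for NRF2 without Cyss -0.0304, and the interaction of TIMP2 -0.0341. On leaving out 1 library these ran from -0.0869 to 0.0391 for MMP13 and from -0.0860 to 0.0704 for TIMP1, and the interactions from -0.378 to 0.0156 for MMP10 and from -0.00389 to 0.147 for TIMP1. For the effect of Cyss on the ratio of MMP10, a pseudocount of 2 brought the adjusted exact permutation p to 0.0975 relative to MMP1 (-0.648 on the log2 scale), MMP3 (-0.489) and TIMP3 (0.365). Leaving out 1 library gave -0.763 to -0.538 for MMP1, -0.621 to -0.357 for MMP3, 0.334 to 0.504 for MMP14, 0.322 to 0.476 for TIMP3, -0.0193 to 0.331 for MMP12, 0.514 to 0.724 for BIRC2 and 0.436 to 0.658 for BIRC3, with changes of call for each.

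No pairing of libraries by replicate number is stated, and the values did not settle whether there was one. Deviations of same-numbered libraries correlated with r from -0.18 to 0.25 over 12 pairs, of which 3 were over 0.1. Between different numbers r ran from -0.28 to 0.23. With a replicate block, genes at edgeR's unadjusted p under 0.05 went from 3160 to 3517 for Cyss in GFP cells and from 5887 to 6508 in NRF2 cells. For NRF2 they went from 3321 to 3217 with Cyss and from 5962 to 6545 without. With the number as a replicate block the members called were 3, 5, 2, 5 and 4 in the 5 fits, as without it, and the log2 fold change of TIMP1 for NRF2 without Cyss was -0.00254.

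Counts over all genes moved further. Without a fold threshold, the genes higher and lower were 543 and 490 when GFP cells lacked Cyss, 2633 and 2379 when NRF2 cells did, 724 and 398 for NRF2 with Cyss, and 2425 and 2551 without. DESeq2 gave 155 and 15 for NRF2 with Cyss, 439 lower without Cyss and 718 lower for the interaction. Without a filter, 185 were lower for Cyss in GFP cells and 66 for NRF2 with Cyss. At an adjusted p under 0.05, 17 were lower for NRF2 with Cyss and 528 for the interaction, and with all 12 libraries 21 for NRF2 with Cyss. Leaving out 1 library gave 55 to 133 lower for Cyss in GFP cells, 142 to 254 higher and 15 to 56 lower for NRF2 with Cyss, 425 to 840 lower without Cyss, and 913 to 2119 higher and 482 to 1562 lower for the interaction.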
